A study of Homo sapiens with 6 samples.

Results

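The transcripts of 10 genes were followed in COV434 cells after BRG1 reexpression. They are the 8 genes that encode catalytic transglutaminases (TGM1, TGM2, TGM3, TGM4, TGM5, TGM6, TGM7 and F13A1) and the plakin genes EVPL and PPL. They were chosen by symbol from the 19899 genes of the table, and all 10 were present. COV434 is a cultured line of ovarian origin, used in the study as a model of SCCOHT, a small cell ovarian cancer without BRG1, the SWI/SNF ATPase encoded by SMARCA4. Parental cells received the control plasmid pCDNA3-neo (Control, n = 3) or PBJ5-BRG1 (BRG1, n = 3). In both groups a puromycin resistance plasmid, pBABE-puro, was added at 1 part to between 6.25 and 10 parts of the first plasmid, and puromycin at 2 to 3 µg/ml was given for 3 days, starting 24 hours after transfection. The expression was therefore transient, and each library is a bulk of selected cells in which the number of cells that hold a transcript and its amount per cell cannot be told apart.

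Transglutaminases join a glutamine of one protein to a lysine of another and so make bonds that proteases do not open. In stratified epithelia TGM1, TGM3 and TGM5 use this reaction to build the cornified envelope, the shell beneath the membrane of a dying keratinocyte. Envoplakin (EVPL) and periplakin (PPL) are plakins, cytolinkers that pair with each other and are laid down early in that shell as a scaffold tied to desmosomes and keratin filaments. TGM2 is the broadly expressed tissue transglutaminase, which also acts outside the cell on matrix proteins, TGM4 is known from the prostate, TGM6 from nerve tissue, and F13A1 encodes the catalytic A subunit of coagulation factor XIII.

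The libraries held between 29699741 and 63613710 estimated counts, and BRG1 replicate 3 was the shallowest. SMARCA4 was measured first to check the labels. Its normalised count, the estimated count scaled to a common library size, lay between 1518 and 1762 in Control samples and between 82237 and 111101 in BRG1 samples, plasmid transcripts included (log2 fold change 5.82, SE 0.17, edgeR adjusted p = 6.1e-06). SMARCA2, which encodes the other ATPase of the complex, averaged 17.4 ± 11.8 normalised counts without BRG1 and 25.1 ± 16.2 with it (SD, n = 3), and the 2 groups overlapped.

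Upstream sequence was available from RefSeq for 5 of the 10 genes (TGM3, TGM4, TGM5, TGM7 and F13A1, build GRCh38.p14). It was not available for TGM1, TGM2 and PPL, the members called higher below, so their promoters were not searched for any motif. The 250 bases before the start are shown for TGM3 and TGM5, the epidermal transglutaminases whose few reads lay almost all in BRG1 samples, and capitals mark matches to a TATA motif. The TGM3 window is chr20:2295751-2296000 on the plus strand and the TGM5 window chr15:43266929-43267178 on the minus strand.
TGM3: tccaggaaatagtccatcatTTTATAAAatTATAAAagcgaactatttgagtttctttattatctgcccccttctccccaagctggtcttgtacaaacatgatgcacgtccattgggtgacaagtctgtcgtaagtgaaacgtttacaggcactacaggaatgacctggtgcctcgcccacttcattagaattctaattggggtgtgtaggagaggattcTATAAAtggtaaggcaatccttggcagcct
TGM5: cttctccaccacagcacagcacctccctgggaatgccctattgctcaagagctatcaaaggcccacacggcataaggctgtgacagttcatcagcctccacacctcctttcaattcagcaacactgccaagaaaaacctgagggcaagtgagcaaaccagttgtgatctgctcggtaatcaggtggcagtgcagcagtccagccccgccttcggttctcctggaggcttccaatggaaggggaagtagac
Windows of 300 bases, 250 before and 50 after the start, were searched on both strands. The AP-1 motif TGANTCA, the binding sequence of the FOS and JUN dimers that the study links to BRG1, reads the same on both strands and was found in 7.71% of all 35116 windows and in 0 of these 5. The CRE motif TGACGTCA was found in 1.85% of all windows and the interferon response motif, GAAA repeated after 2 free bases, in 3.57%, and neither was found in these 5. TATAAA was found in 11.5% of all windows and, of the 5, in that of TGM3, with 4 matches. The match nearest to the start lay at positions -30 to -25, and the 2 farthest overlap each other. A match is a description of letters and no sign of use.

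Following BRG1 reexpression, TGM2, TGM1 and PPL rose. TGM2 rose 212-fold, TGM1 9.48-fold and PPL 7.25-fold, and their groups did not overlap. Of the 10 genes, 4 held enough reads to be tested, and of these 3 were called higher (edgeR quasi-likelihood test, Benjamini-Hochberg adjusted p under 0.05) and 0 lower. F13A1, the other tested gene, passed the low-count filter only through its BRG1 samples, had an unadjusted p of 0.0232 and was not called. Over the 14246 genes tested, 9.57% were called higher and 1.02% lower. DESeq2 called the same 3 members higher and 0 lower, where 11% of its 15991 genes were called higher and 1.84% lower. With the replicate number as a block, edgeR again called these 3, against 13.7% of genes higher and 5.68% lower, and DESeq2 called F13A1 in addition, against 13.4% higher and 6.62% lower. With no low-count filter the same 3 were called, against 8.1% of genes higher and 0.823% lower. In the main fit the other 6 members, TGM3 to TGM7 and EVPL, had too few reads to enter the test. When a replicate was left out, TGM3 entered without BRG1 replicate 3, where it was called, and without each Control replicate, where it was not. TGM4 entered without Control replicate 1, Control replicate 2 or BRG1 replicate 3 and was not called (edgeR adjusted p = 0.303, 0.458 and 0.065). DESeq2 without the block tested both genes and called neither (DESeq2 adjusted p = 0.0954 for TGM3 and 0.509 for TGM4).

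TGM2 (chromosome 20, 38127385 to 38166578, minus strand, GRCh38, GENCODE release 44) had 231, 125 and 100 normalised counts in Control samples 1 to 3. BRG1 samples 1 to 3 had 56427, 26729 and 12456. Every BRG1 sample lay far above every Control sample, although the BRG1 samples differed among themselves more than those of any other member that was called. The log2 fold change was 7.73 (SE 0.70, edgeR adjusted p = 0.000398). Of all tested genes, 5.17% had a log2 fold change of at least 3, as had TGM1, TGM2 and F13A1 (3.07, not called), and 1.04% one of at least 7. TGM2 ranked 85 by fold and 183 by p-value. Between samples of the same number the fold was 244, 214 and 125. SMARCA4 itself had 111101, 82237 and 82944 normalised counts in BRG1 samples 1 to 3, so that samples 2 and 3 were alike in SMARCA4 while TGM2 was higher in sample 2. The part of SMARCA4 level and of depth in the spread of TGM2 was not tested. Exons of RPRD1B, on the opposite strand, cover 4.98% of the exonic bases of TGM2, and RPRD1B did not change beyond its replicate spread (log2 fold change 0.12, edgeR adjusted p = 0.656).

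TGM1 (chromosome 14, 24249114 to 24264432, minus strand) encodes the membrane-bound transglutaminase of keratinocytes, whose loss causes lamellar ichthyosis. It had 52.9, 53.1 and 67.4 normalised counts in Control samples 1 to 3 and 831, 569.5 and 249.1 in BRG1 samples 1 to 3. The Control samples were close together and all lay below the lowest BRG1 sample. The log2 fold change was 3.24 (SE 0.45, edgeR adjusted p = 0.00273), and within replicate numbers the fold was 15.7, 10.7 and 3.70. BRG1 replicate 3 was the lowest BRG1 sample for TGM1 as it was for TGM2 and PPL.

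PPL (chromosome 16, 4882507 to 4960741, minus strand) was the more abundant plakin of the pair in both groups. Control samples 1 to 3 had 452, 187 and 399 normalised counts, and BRG1 samples 1 to 3 had 3092, 2461 and 1977. The lowest BRG1 sample stood above the highest Control sample. The log2 fold change was 2.86 (SE 0.34, edgeR adjusted p = 0.00132), with folds of 6.84, 13.1 and 4.96 within replicate numbers. The second of these folds was the largest because Control replicate 2 had the lowest PPL value.

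EVPL (chromosome 17, 76004502 to 76027306, minus strand), the partner of PPL, was near the limit of detection. Its estimated counts were 4.04, 0 and 0 in Control samples 1 to 3 and 0.271, 4.04 and 0 in BRG1 samples 1 to 3. The groups overlapped, and the ratio of the rounded sums, 4 counts against 4, was 0.91 with an exact 95% interval of 0.17 to 4.89 that covers counting error only. With no low-count filter its log2 fold change was -0.24 with an SE of 1.72 (edgeR adjusted p = 0.961). Since the interval leaves out the spread between replicates, whether EVPL rose as PPL did cannot be judged. PPL and EVPL, with the desmosomal plakin DSP, are on the epithelial gene list that the study curated, so the rise of PPL is not independent evidence for that list.

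F13A1 (chromosome 6, 6144084 to 6321013, minus strand) had 15.6 normalised counts in Control sample 1 and 0 in Control samples 2 and 3. BRG1 samples 1 to 3 had 37.2, 40.4 and 40.2. The BRG1 samples were nearly equal and all exceeded the Control samples, while the Control value rested on 1 library. The log2 fold change was 3.07 (SE 1.09, edgeR adjusted p = 0.147). Without Control replicate 1 the gene was called (edgeR adjusted p = 0.0069), and the fold change then rested on Control samples with no read.

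**Figure D1:**
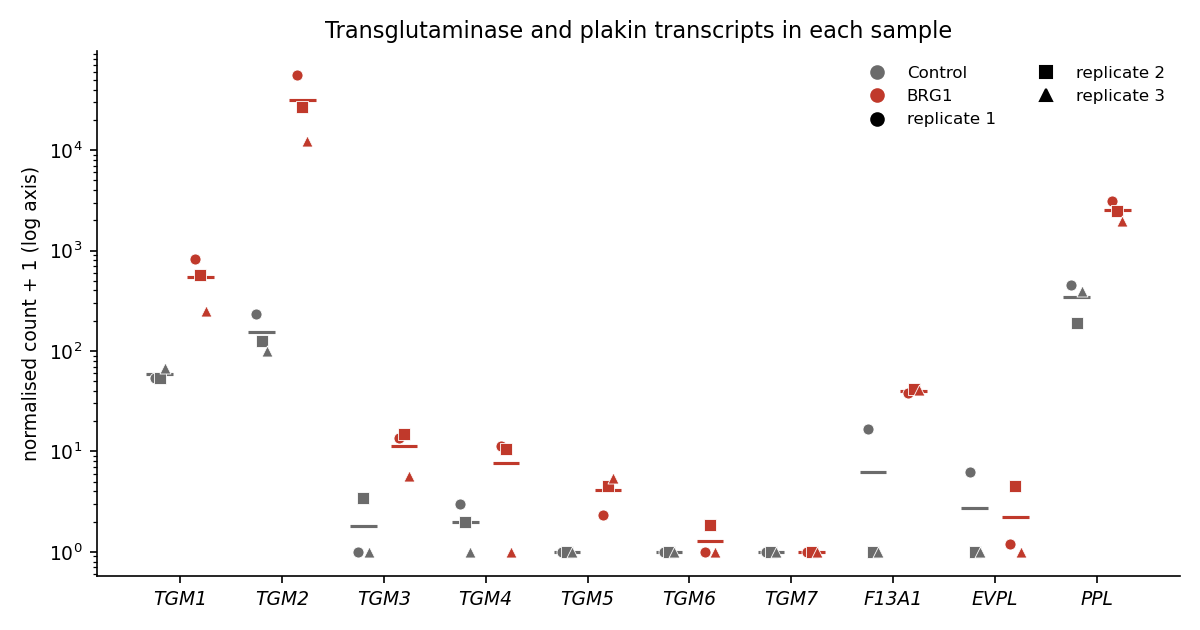
Normalised count plus 1 (log axis) of the 10 genes in the 3 Control samples (grey) and the 3 BRG1 samples (red), with the replicate as the symbol and the group mean as a bar. TGM2, TGM1 and PPL stand apart between groups, with TGM2 between 100 and 231 in Control and between 12456 and 56427 in BRG1 samples, while TGM6, TGM7 and EVPL lie at or near 0.

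The remaining transglutaminases had few reads. TGM3 (chromosome 20, 2296001 to 2341079), the enzyme of the hair follicle and upper epidermis, had estimated counts of 0, 2.00 and 0 in Control samples 1 to 3 and of 16.96, 16.0 and 2.99 in BRG1 samples 1 to 3. The groups did not overlap, and the ratio of the summed counts was 16.4 with an exact 95% interval of 4.22 to 140.5 for counting error. TGM3 did not pass the low-count filter, and with no filter it was not called (log2 fold change 3.67, edgeR adjusted p = 0.0795, where 8.1% of 18096 genes were called higher). Without BRG1 replicate 3, its lowest BRG1 sample and the shallowest library, it passed the filter and was called (log2 fold change 4.03, edgeR adjusted p = 0.0322). It also passed the filter without Control replicate 1, 2 or 3 and was not called (edgeR adjusted p = 0.174, 0.0566 and 0.188). Another gene of GENCODE release 44, on the same strand, covers 94.8% of its exonic bases. The study used an earlier release, so whether the deposited reads were divided with that gene is not known and their origin is uncertain.

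TGM5 (chromosome 15, 43232590 to 43266928), whose loss causes peeling of the outer epidermis, had 0 counts in every Control sample and 1.78, 4.12 and 2.82 in BRG1 samples 1 to 3. Its 9 counts over the BRG1 libraries were 2.73-fold above a floor of 3 counts over the Control group, a ratio with no allowance for error. TGM4 (chromosome 3, 44874608 to 44914990) had 1.58, 0.793 and 0 estimated counts in Control samples and 14.0, 11.1 and 0 in BRG1 samples 1 to 3. BRG1 replicate 3 overlapped the Control samples, and the ratio of the sums was 7.59 with an exact 95% interval of 2.32 to 39.3 for counting error. With no low-count filter neither TGM5 nor TGM4 was called (edgeR adjusted p = 0.15 and 0.322). TGM6 (chromosome 20, 2380901 to 2432753) held 1 count in BRG1 samples and 0 in Control, and TGM7 (chromosome 15, 43276271 to 43302255) held 0 in all 6 libraries, so no change was detectable at this depth. In 6 of the 10 genes every BRG1 sample lay above every Control sample, which held for 15.4% of the 18096 genes with a count in any sample.

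Levels were compared between the transglutaminases per length, as normalised counts per kilobase of the canonical transcript. In Control samples the 8 genes summed to 70.4, 45.8 and 44.7, and TGM2 and TGM1 made up nearly all of the sum. TGM2 held 66.0%, 55.0% and 45% of it and TGM1 27.4%, 42.3% and 55.0%, so the order of the pair differed between Control samples and their levels were not separated (30.6 against 21.1 per kilobase on average). In BRG1 samples the sum rose to 11674, 5606 and 2611. TGM2 held 97.3%, 95.9% and 96.0% of it, and TGM1 between 2.59% and 3.70%. F13A1 came next in the mean of the BRG1 samples with 10.2 per kilobase, followed by TGM3 with 3.92, TGM4 with 1.97 and TGM5 with 1.09. F13A1 stood above TGM3 in every BRG1 sample, while the ranges of TGM3 and TGM4, and of TGM4 and TGM5, overlapped. Among the 18214 genes with a length, TGM2 ranked between 249 and 1266 by level per kilobase in BRG1 samples, and between 10178 and 11016 in Control samples.

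**Figure D2:**
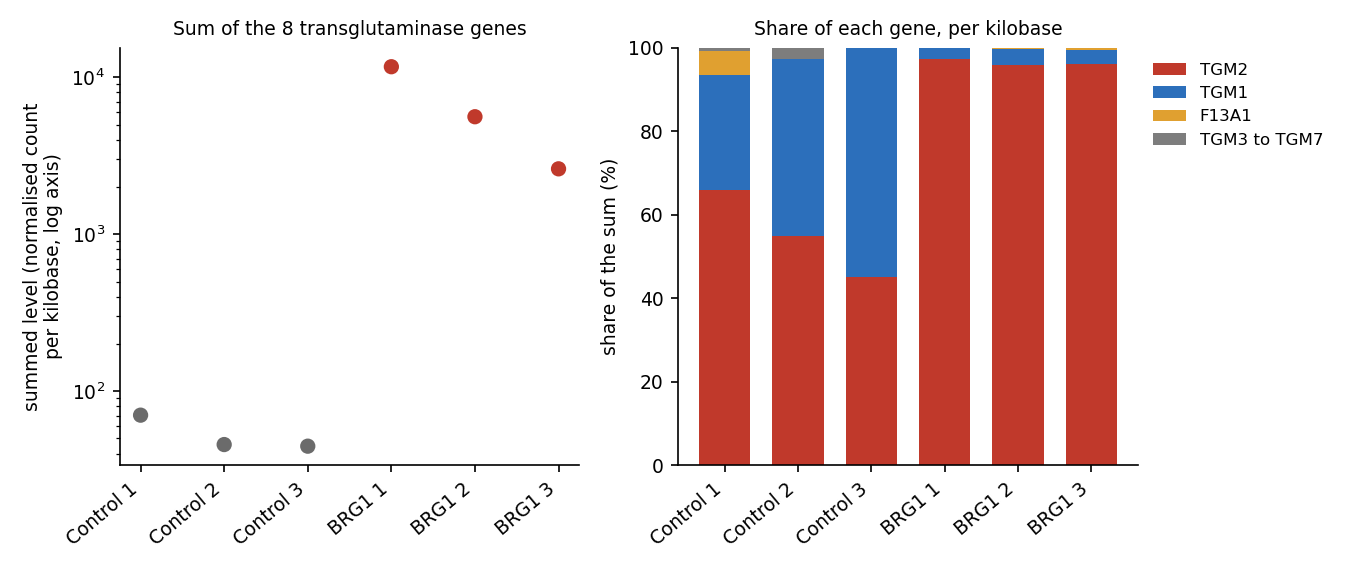
Left, summed level of the 8 transglutaminase genes in each sample in normalised counts per kilobase (log axis), with Control in grey and BRG1 in red. Right, the share of that sum held by TGM2, TGM1, F13A1 and the other 5 genes, where TGM2 goes from between 45% and 66.0% in Control to between 95.9% and 97.3% in BRG1 samples.

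Genes with a profile most like those of the 3 called members were sought by the root mean square difference of centred log2(CPM + 1) over the 6 samples, among 14245 other genes. The nearest to TGM2 were CPA4, a metallocarboxypeptidase (0.17), SPARC, a matricellular collagen-binding protein (0.38), and HSD3B1, a steroid dehydrogenase (0.47). CPA4 stayed close to TGM2, with 229, 129.9 and 134 normalised counts in Control and 73464, 36117 and 13367 in BRG1 samples 1 to 3. The nearest to PPL were BMP1, the procollagen C-proteinase (0.24), TNXB, a tenascin (0.28), and VLDLR, a lipoprotein receptor (0.28). The nearest to TGM1 were PDCD1LG2, an immune checkpoint ligand (0.07), ADRA2A, an adrenergic receptor (0.10), and DAAM2, a formin (0.11). PDCD1LG2 had 0 counts in every Control sample, and ADRA2A and DAAM2 had at most 4.94 and 10.97 normalised counts there. Each of these genes had a larger log2 fold change than TGM1. They are close to TGM1 only on a scale where 1 was added to the CPM. TGM1 stood at rank 139 from PPL with a difference of 0.47, and TGM2 at rank 14240 with 2.25. Seen from TGM2, PPL stood at rank 274 and TGM1 at rank 336. The profiles were not scaled, so the size of a fold enters the difference. These are descriptions over 6 samples that share libraries and depth.

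**Figure D3:**
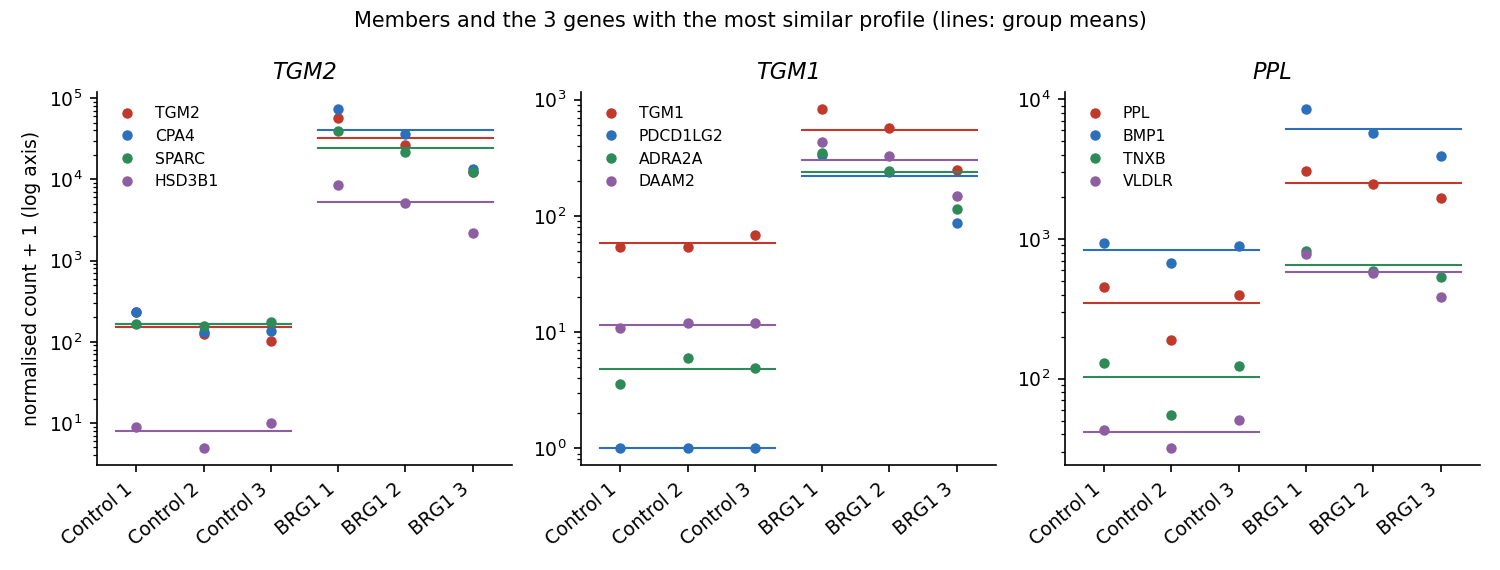
Normalised count plus 1 (log axis) in each sample for TGM2, TGM1 and PPL (red) and the 3 genes most like each of them, with the group means as lines. CPA4 runs beside TGM2 in all 6 samples, and in each panel BRG1 sample 3 is the lowest BRG1 sample.

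The other genes of the envelope were examined from lists built on known biology. Of 34 other cornified envelope proteins, 16 were tested, 11 rose and 0 fell, with 5 not called, where 9.57% of all tested genes rose. Their median log2 fold change was 3.63 against -0.04 for all tested genes. The other 18 had too few reads to be tested. Of the 16, 9 passed the low-count filter only through their BRG1 samples, among them 7 of the 11 that rose (IVL, HRNR, CRNN, SPRR3, KRT1, SPRR2D and RPTN), and entry by that route favours a higher value with BRG1, so the count and the median describe the tested genes and not the list. The remaining 4 that rose were FLG, PI3, ANXA1 and DSP. Over all tested genes, 581 of the 1364 that rose entered the test in this way, as did, among the called genes named from the lists that follow, EPPK1, RARRES3, NIPAL4, ADGRG1, STRA6, DHRS3 and LYZ. Involucrin (IVL), an early transglutaminase substrate, rose from 3.04 ± 1.27 to 1334 ± 853 normalised counts (SD, n = 3, log2 fold change 8.82, edgeR adjusted p = 0.000312). The S100-fused proteins HRNR (hornerin) and FLG (filaggrin) had log2 fold changes of 8.49 and 6.75, and elafin (PI3), a protease inhibitor with transglutaminase substrate repeats, one of 7.30. CRNN (cornulin) had 1 count over the Control libraries and 8397 over the BRG1 libraries. SPRR3, ANXA1 (annexin A1), KRT1, SPRR2D and RPTN (repetin) rose with log2 fold changes between 3.45 and 4.88, and DSP, which is also a plakin, was the last of the 11. IVL, HRNR, SPRR3, KRT1 and RPTN held only 8, 5, 6, 4 and 4 counts over the Control libraries, so the size of their folds is uncertain. Loricrin (LOR), the main protein of the mature epidermal envelope, did not enter the test, with 6 counts over Control and 30 over BRG1 libraries, and SPRR1A and SPRR4 had 0 counts in every sample. KRT10 and CNFN were tested and not called, with log2 fold changes of 0.03 and -0.20 (edgeR adjusted p = 0.963 and 0.744). Members of the SPRR and LCE families are near-identical, so the division of their reads is uncertain.

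Among 8 relatives and partners of the members, 6 were tested, 2 rose and 0 fell (median log2 fold change 0.64). Over all tested genes 9.57% rose and the median was -0.04. EPPK1 (epiplakin), a plakin of plakin repeats alone, rose from 10.8 ± 4.98 to 197 ± 117 normalised counts (log2 fold change 4.26, edgeR adjusted p = 0.00345), and DSP (desmoplakin) from 237 ± 39.0 to 791 ± 187 (1.74, edgeR adjusted p = 0.00268; SD, n = 3). The large plakins PLEC, DST and MACF1 had log2 fold changes of 0.28, -0.18 and -0.08 and were not called (edgeR adjusted p = 0.388, 0.511 and 0.680). EPB42, the transglutaminase-like erythrocyte protein without catalytic activity, and F13B, the carrier subunit of factor XIII, had 0 counts in every sample. With the replicate block KAZN (kazrin), a partner of PPL, was called higher as well (edgeR adjusted p = 0.0308, and 0.238 without the block). A difference in response between PPL and these plakins was not tested.

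Of 11 genes whose products process or bind transglutaminases, 10 were tested, 4 rose and 0 fell (median log2 fold change 0.54). For all tested genes the share that rose was 9.57% and the median -0.04. With the replicate number as a block 7 rose, the additions being CTSB, CTSD and CTSS. RARRES3, also known as TIG3, which binds and activates TGM1, rose from 9.47 ± 1.53 to 247 ± 108 normalised counts (SD, n = 3, log2 fold change 4.73, edgeR adjusted p = 0.000517). CTSV, a lysosomal cysteine protease of the epidermis, had a log2 fold change of 2.19 (edgeR adjusted p = 0.000101). CTSL, which can cleave pro-TGM3, and CAPN2, a calpain, had smaller changes of 0.60 and 1.02 (edgeR adjusted p = 0.0098 and 0.0216). The call of CTSL was lost without Control replicate 1 or 2 (highest adjusted p 0.054), and that of CAPN2 in 4 of the 6 fits that left out a replicate, namely without any 1 Control replicate or BRG1 replicate 2 (highest adjusted p 0.0941). CST6, an inhibitor of those cathepsins, had 0 counts over Control and 3 over BRG1 libraries.

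The lipid envelope, which is bound to the protein shell and is affected in ichthyoses as TGM1 is, was read from 16 genes. Of these 11 were tested, 2 rose and 0 fell, where 9.57% of all tested genes rose. The median log2 fold change was 0.07, against -0.04 for all tested genes. With the replicate block ABHD5, a lipase cofactor, was called higher as well (edgeR adjusted p = 0.00614, and 0.188 without the block). NIPAL4, an ichthyosis gene, rose from 2.38 ± 1.12 to 114 ± 78.6 normalised counts (SD, n = 3, log2 fold change 5.32, edgeR adjusted p = 0.00372). UGCG, which makes glucosylceramide, had a log2 fold change of 1.27 (edgeR adjusted p = 0.022), and its call was kept only without BRG1 replicate 3 of the 6 fits that left out a replicate (highest adjusted p 0.102, without Control replicate 2). The lipoxygenase genes ALOX12B and ALOXE3 had log2 fold changes of -0.86 and 0.23 and were not called (edgeR adjusted p = 0.156 and 0.899).

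Partners and substrates of TGM2 and factor XIII were listed next. Of 19 genes 17 were tested, 6 rose and 0 fell (median log2 fold change 0.49), where 9.57% of all tested genes rose and their median was -0.04. ITGB3, the beta 3 integrin that binds TGM2 at the cell surface, VTN (vitronectin) and ADGRG1, a receptor for TGM2, had log2 fold changes of 4.47, 4.30 and 4.09 (edgeR adjusted p = 0.000101, 0.00138 and 0.00355). HSPG2 (perlecan) and FBN1 (fibrillin 1) rose as well, by 2.35 and 2.21 on the log2 scale. Fibronectin (FN1), a main matrix substrate of TGM2, had a log2 fold change of 0.83 and ITGB1 of -0.06, and neither was called (edgeR adjusted p = 0.218 and 0.820). The fibrinogen chains FGA, FGB and FGG, the substrates of factor XIII, had log2 fold changes of 0.17, 0.49 and -0.37 (edgeR adjusted p = 0.814, 0.660 and 0.327). With the replicate block 7 were called higher, SPP1 (osteopontin) being added (edgeR adjusted p = 0.0199), and 1 lower, POSTN (edgeR adjusted p = 0.0228, log2 fold change -0.65).

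TGM2 is a known retinoid-inducible gene, and 14 retinoid receptors and response genes were read beside it. Of 10 tested, 4 rose and 0 fell (median log2 fold change 0.41), where 9.57% of all tested genes rose and their median was -0.04. Of the 10, 4 passed the low-count filter only through their BRG1 samples, among them 2 of the 4 that rose (STRA6 and DHRS3). STRA6, the retinol transporter, had a log2 fold change of 4.74 (edgeR adjusted p = 0.00609), with 7 counts over the Control libraries. The retinoid-metabolising enzymes DHRS3, CYP26A1 and CYP26B1 had log2 fold changes of 2.96, 2.71 and 2.02 (edgeR adjusted p = 0.0273, 0.0117 and 0.0247). The calls of these 3 enzymes were each lost when some replicates were left out. DHRS3 was kept only without BRG1 replicate 3 (highest adjusted p 0.121), CYP26A1 was lost without Control replicate 2 or 3 (highest 0.0642), and CYP26B1 was kept only without Control replicate 1 or BRG1 replicate 3 (highest 0.105). The receptors RARA, RARB, RARG, RXRA and RXRB were not called.

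F13A1 is known from macrophages and megakaryocytes, so 12 markers of these cells were read beside it. Of 6 tested, 1 rose and 0 fell (median log2 fold change 0.51), where 9.57% of all tested genes rose and their median was -0.04. With the replicate block CD68 was the second (edgeR adjusted p = 0.0343). The called gene was LYZ (lysozyme), with 3 counts over Control and 59 over BRG1 libraries (edgeR adjusted p = 0.00938), and its call was lost without Control replicate 3 (adjusted p 0.0618). The summed level of the list was between 2023 and 3078 normalised counts in Control and between 2632 and 4166 in BRG1 samples, ranges that overlap, and most of it was CD68 and PTPRC. The markers CD163, MRC1, AIF1 and GP9 had between 0 and 2 counts over either group. CSF1R had 5 counts over Control and 29 over BRG1 libraries, with groups that did not overlap, and CD14 had 16 and 19, and neither was tested. PPBP (62 and 184 counts), ITGA2B (64 and 95) and PF4 (83 and 49) were tested and not called. The part of such cells in the F13A1 value was not tested beyond these levels.

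**Figure D4:**
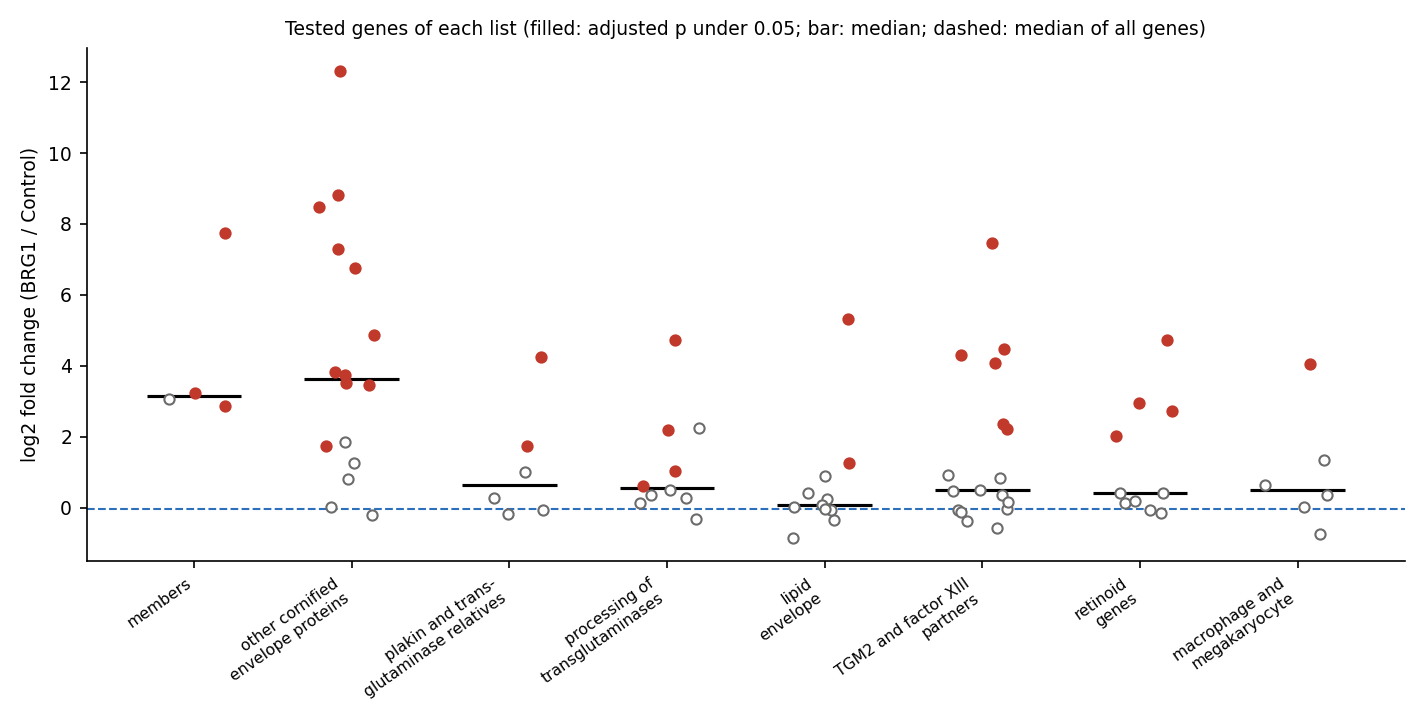
Log2 fold change (BRG1 over Control) of the tested members and of the tested genes of each list, with called genes filled, list medians as bars and the median of all tested genes (-0.04) dashed. The highest point is CRNN, whose fitted value rests on 1 Control count, and 9 of the 16 cornified envelope genes shown, with F13A1 among the members, passed the low-count filter only through their BRG1 samples.

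The members lie on 7 chromosomes. TGM3 and TGM6 are neighbours on chromosome 20 and TGM5, TGM7 and EPB42 on chromosome 15. The nearest gene on each side of the members, leaving out the members themselves, gave 16 genes chosen by position after the values were seen. Of these 12 were tested, and 1 was called higher and 0 lower, a share near the 9.57% called higher over all tested genes. It was NRN1, a neuritin gene next to F13A1 at a gap of 136479 bases, with a log2 fold change of 3.61 (edgeR adjusted p = 0.00682). The genes beside TGM1 (TINF2 and RABGGTA) and PPL (UBN1) had log2 fold changes of 0.13, 0.08 and 0.18 and were not called (edgeR adjusted p = 0.567, 0.827 and 0.570), so the rise of these members was not shared by their tested neighbours.

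**Figure D5:**
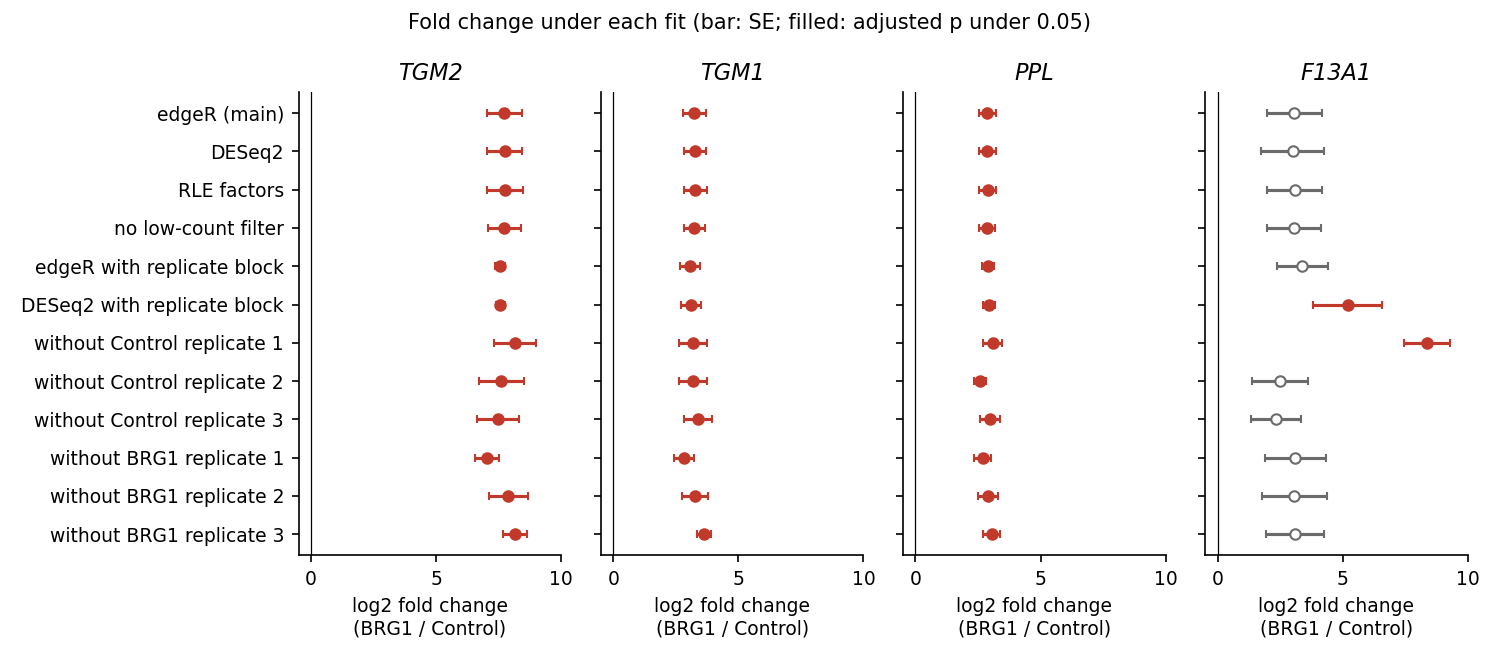
Log2 fold change (BRG1 over Control) with its SE for the 4 tested members under the main edgeR fit, the alternatives and the fits that leave out 1 replicate, filled where the adjusted p was under 0.05. TGM2, TGM1 and PPL were called in all 12 fits shown, and F13A1 was called by DESeq2 with the replicate block and by edgeR without Control replicate 1.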

How the data were processed

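RNA-seq libraries were made by the authors with an unstranded poly(A) kit from 500 ng of RNA and sequenced as read pairs of 78 bases. Per the paper's methods and the labels, reads were aligned with STAR (2.5.3a) and quantified with Salmon (0.8.2) on hg38, and the authors deposited estimated counts for each gene symbol (tximport, lengthScaledTPM) with library size left in. Ambiguous reads were assigned by Salmon's model, and antisense reads cannot be told apart. Estimated counts were rounded. BRG1 was compared with Control by the edgeR (4.0.16) quasi-likelihood test in R 4.3.3 with TMM factors and filterByExpr (minimum count 10), which kept 14246 of 19899 genes. The SE is the log2 fold change divided by the square root of the F statistic. The study used DESeq2. It is an alternative here (1.42.0), because with 3 against 3 simulated samples it made more false calls than its threshold names. The simulated counts were drawn from edgeR's own dispersion estimates and held no pairs, a setting that can favour edgeR. They cannot show which tool is more reliable for these data. Normalised counts are estimated counts divided by the TMM-scaled library size and multiplied by its mean over samples. Libraries of 29699741 to 63613710 counts limit the precision of low genes, and intervals cover counting error only.

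Same-numbered Control and BRG1 samples deviated together from their group means (Pearson r 0.508, 0.530 and 0.584 across 14246 genes, which are not independent), so the numbers were taken as pairs on the basis of the data, and a fit with the replicate number as a block was an alternative. The members and the 7 gene lists were chosen with earlier results of these data known. The text names all members, up to 4 called genes per list with the largest change and a mean of at least 10 normalised counts, and markers at 0. One gene that this rule picks is not reported here. Other list genes (FLG, LOR, SPRR1A, SPRR4, KRT10, CNFN, PLEC, DST, MACF1, the fibrinogen chains and others not called) were named after their values were seen.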

Additional observations from a re-analysis of the deposited data

How the results depend on the processing

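The calls of TGM1, TGM2, PPL and SMARCA4 held in every fit run: edgeR with RLE factors, with no low-count filter and with the replicate block, DESeq2 with and without the block, and the 6 fits that left out a replicate. Their log2 fold changes ran from 2.82 to 3.63 for TGM1, 7.04 to 8.16 for TGM2, 2.56 to 3.09 for PPL and 5.67 to 5.93 for SMARCA4 when a replicate was left out. For F13A1 (3.07, not called) they ran from 2.35 to 8.37, the last without Control replicate 1, when both remaining Control samples had no read and the fitted value depends on the offset of the fit. DESeq2 with the replicate block gave 5.20 and called it (adjusted p 0.00163), and edgeR with the block did not (adjusted p 0.0563). Members called higher (3) were 4 with DESeq2 and the block and without Control replicate 1, through F13A1, and without BRG1 replicate 3, through TGM3. Members called lower were 0 throughout, and at an unadjusted p under 0.05 edgeR had 0 as well. The cause of the following shifts was not tested.

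Genes called lower (146) were 294 with DESeq2, 809 with the edgeR replicate block, 1035 with DESeq2 and the block and 31 at an adjusted p under 0.01, and with a replicate left out lay between 39 (BRG1 replicate 2) and 256 (BRG1 replicate 3). Genes called higher (1364) were 2095 with DESeq2 and the block and ran from 1028 to 1795. Lipid envelope genes called higher (2) were 1 at an adjusted p under 0.01 and ran from 1 to 5. Processing genes called higher (4) were 7 with the replicate block in edgeR and in DESeq2 and ran from 2 to 7, and those called lower (0) were 1 with DESeq2 and the block and ran from 0 to 1. Retinoid genes called higher (4) were 1 at an adjusted p under 0.01 and ran from 1 to 4. Macrophage and megakaryocyte markers called higher (1) were 2 with the replicate block in both tools and ran from 0 to 2. Matrix partners called lower (0) were 1 with the block in both tools. The alternatives gave 242 values for 22 genes, namely SMARCA2, which is on no list, and the list genes picked by the rule. Of these values, 219 kept direction and call status, 23 lost the call, all with a replicate left out, and 0 reversed. SMARCA2 was called in no fit, so its values among the 219 kept a lack of call. The block changed no call of TGM1, TGM2, PPL or F13A1 under edgeR. Depth limits TGM3 to TGM7 and EVPL, with at most 36 counts over the BRG1 libraries.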
